A study of Mus musculus with 10 samples.

Results

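The collagen genes of the mouse were followed across all 5 groups of a CodeLink whole genome array study. Members were all probes annotated with exactly 1 gene symbol of the form Col, a number, a, a number, and where a gene had several probes the brightest one by mean log2 over the 10 arrays was read. This gave 41 genes with 53 probes, out of 18067 named genes and 34967 probes, and 12 genes had 2 probes. By class there were 11 fibrillar genes, 6 type IV genes of basement membranes, 6 type VI genes, 7 fibril-associated (FACIT) genes, 4 network and anchoring genes, 4 transmembrane genes, 2 multiplexins and 1 other gene. One further probe, annotated with both Col9a2 and Drg2, was left out, and Col12a1 and Col28a1 had no probe named for them alone.

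The study asked how inducing Pdx1 together with Ngn3 changes endoderm that was derived from embryonic stem (ES) cells, and set the result beside pancreatic cells. Dox(+) EBs were embryoid bodies of the engineered Ainv18 ES line, treated with 1 µg/ml doxycycline from day 4 and harvested on day 13. Dox(-) EBs were the same line at day 13 without doxycycline, so both EB groups carry the inducible construct and both passed through activin A. The other groups were βTC6 cells, a mouse insulinoma line, whole islets, and whole embryonic pancreas (E15.5 pancreas, named for the day of gestation). Each group had 2 arrays, which the labels call biological replicates without saying whether they came from separate cultures or animals. The p-values therefore measure only how much these arrays differ, which may be technical spread. The labels give no strain and no age for the islets. For the EB arrays 1 label names a bicistronic construct of Pdx1 and Ngn3 while another names activated Notch4, and the engineered EBs stand for 1 ES cell line.

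Collagens are secreted or membrane-bound proteins whose chains wind into helical trimers. Fibrillar collagens, above all types I, III and V, bear the tension of connective tissue and are made mostly by mesenchymal cells, whereas type IV collagen forms the sheet under epithelia and around capillaries, and type VI forms beaded filaments beside it. In the pancreas the endocrine cells themselves make little collagen, and the basement membrane around islets is supplied largely by the vessels that run through them.

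All values are scaled intensities, on which the median probe of an array is 1, with a floor of 0.27 applied before log2. Between 66.0% and 74.3% of the probes of an array were above background, and the 2 arrays of a group correlated at 0.9891 to 0.9958 over 26555 probes. EB arrays, E15.5 pancreas arrays, and the βTC6 and islet arrays lay in 3 separate ranges of slide numbers, so slide range and tissue cannot be told apart in comparisons across these sets, whereas the comparisons of the EB groups and of βTC6 cells with islets lie within 1 range. The 4 measured acinar genes summed to 1221.4 and 1053.2 on islet arrays and to 659.9 and 624.1 on arrays of E15.5 pancreas. All 4 were saturated on the islet arrays, and Amy2a5 and Cpa1 on those of E15.5 pancreas, so the sums are bounds. Acinar genes were thus bright on the islet arrays too, and their part in the results was not tested. In these bulk RNA samples fewer cells of a type and less RNA per cell cannot be told apart. The chosen probe of 10 collagen genes carries an accession other than a RefSeq transcript, among them Col6a3, Col24a1, Col27a1 and Col25a1, and where in the gene these probes lie is not given in the sources used here.

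The stretches before the start sites of 5 genes are shown first, because Col1a2 and Col3a1 fell with Dox while Col24a1, Col4a5 and Col4a6 rose. They come from the RefSeq promoter windows of build GRCm38.p6, stop before the first base of the annotated gene, and run 5′ to 3′ on the strand of the gene. Capitals mark, on either strand, CCAAT (the usual letters of the box of that name), GGGCGG (those of a GC box) and TATAAA (those of a TATA box).
Col1a2, plus strand, chr6:4505368-4505617: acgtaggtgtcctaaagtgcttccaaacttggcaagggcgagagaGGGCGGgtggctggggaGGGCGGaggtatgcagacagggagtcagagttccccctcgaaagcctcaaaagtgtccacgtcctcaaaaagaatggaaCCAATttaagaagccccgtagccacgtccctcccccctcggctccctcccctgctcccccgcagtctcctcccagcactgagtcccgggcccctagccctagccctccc
Col3a1, plus strand, chr1:45311288-45311537: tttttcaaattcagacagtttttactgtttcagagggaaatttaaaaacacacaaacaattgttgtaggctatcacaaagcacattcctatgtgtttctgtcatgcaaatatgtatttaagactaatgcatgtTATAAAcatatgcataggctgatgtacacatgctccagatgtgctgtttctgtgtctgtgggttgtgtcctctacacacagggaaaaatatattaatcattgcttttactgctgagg
Col24a1, plus strand, chr3:145292222-145292471: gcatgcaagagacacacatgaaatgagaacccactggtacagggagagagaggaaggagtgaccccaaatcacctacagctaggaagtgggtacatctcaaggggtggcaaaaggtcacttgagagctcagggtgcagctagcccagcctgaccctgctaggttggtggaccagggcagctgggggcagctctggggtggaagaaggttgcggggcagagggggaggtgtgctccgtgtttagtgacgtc
Col4a5, plus strand, chrX:141475169-141475369: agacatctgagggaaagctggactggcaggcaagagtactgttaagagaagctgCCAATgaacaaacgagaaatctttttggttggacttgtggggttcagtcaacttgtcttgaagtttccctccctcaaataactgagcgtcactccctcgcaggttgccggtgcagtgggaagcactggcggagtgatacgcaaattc
Col4a6, minus strand, chrX:141474096-141474326: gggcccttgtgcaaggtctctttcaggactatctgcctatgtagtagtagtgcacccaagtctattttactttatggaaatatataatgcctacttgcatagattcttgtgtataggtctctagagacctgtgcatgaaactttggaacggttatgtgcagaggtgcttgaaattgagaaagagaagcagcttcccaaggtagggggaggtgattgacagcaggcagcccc
The stretch of Col1a2 holds 1 CCAAT and 2 GGGCGG, that of Col3a1 holds 1 TATAAA, that of Col4a5 holds 1 CCAAT, and those of Col24a1 and Col4a6 hold none of these letters in full. In the searched window of Col4a5 a GGGCGG begins 30 bases before the start site, beyond the end of the printed stretch. In that of Col4a6 a GGGCGG begins 21 bases before the start site, in the last printed bases, and runs past the end of the stretch.

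Of the 41 genes, 33 had a RefSeq window, 3 of them with 2 windows, and the 250 bases before each start were searched on both strands. CCAAT was found for 13 of the 33 genes and in 33.8% of all 32851 windows. GGGCGG was found for 20 of 33, against 32.7% of all windows, and TATAAA for 5 of 33, against 12.4%. The E box CANNTG, the letters bound by factors of the Ngn3 class, was present for 4 of the 8 genes with a window that rose with Dox and for 5 of the 12 that fell, against 66.2% of all windows. TAAT, the core letters of homeodomain factors such as Pdx1, was present for 4 of those 8 and 3 of those 12, against 54.9% of all windows. A match of letters is a description and not a binding site, and the motifs can overlap each other.

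With Dox, 8 of 11 fibrillar genes and the 3 classical type VI chains fell. By their chosen probes 9 of 40 genes rose, a share near that of all tested probes. In Dox(+) EBs against Dox(-) EBs, limma called 9 of the 40 tested collagen genes higher and 16 lower at an adjusted p under 0.05, where 20.7% of all tested probes were higher, 22.5% lower and 43.2% called in either direction. Col10a1, the hypertrophic cartilage collagen, was at the floor on all 10 arrays and was not tested. The median difference over the 40 genes was -0.08 (log2), beside -0.03 over all tested probes, so the members moved both ways. Of the 16 that fell, 13 had their highest group mean in Dox(-) EBs, and of the 9 that rose, 6 had it in Dox(+) EBs. A gene that fell cannot be highest in Dox(+) EBs, nor one that rose in Dox(-) EBs. These counts are therefore partly set by the calls. In all 25 called genes the measured arrays of 1 group lay beyond those of the other, as they did in 6 of the 15 that were not called. For Col4a6 this rests on 1 Dox(-) array. The share of all probes with arrays apart was not counted, so this separation adds no support to the calls.

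**Figure D1:**
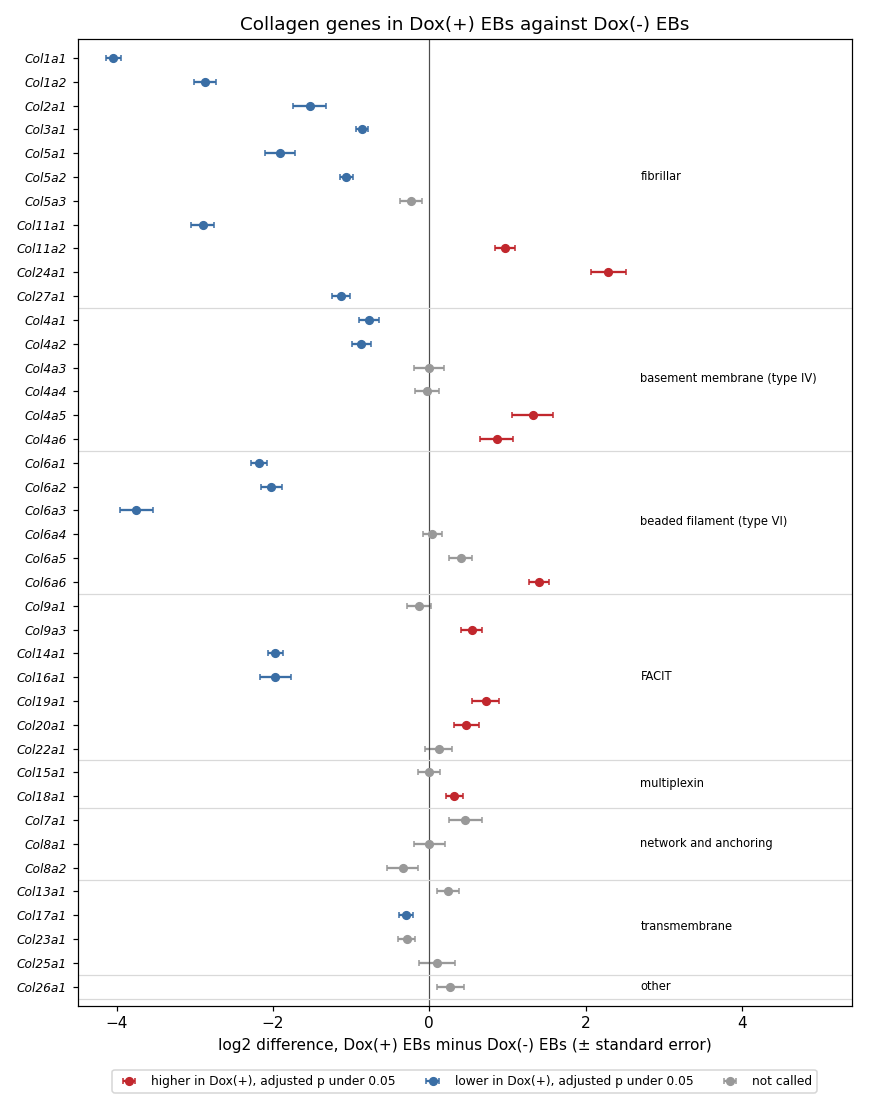
Log2 difference between Dox(+) EBs and Dox(-) EBs (x axis, ± standard error of the fit) for the 40 tested collagen genes (rows, by class), with 2 arrays per group. By their chosen probes, the 16 lower genes include 8 of 11 fibrillar genes and reach -4.04 for Col1a1. The 9 higher genes reach 2.29 for Col24a1.

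Among the 11 fibrillar genes 2 were higher, 8 lower and 1 was not called, with a median of -1.13. Col1a1, which encodes the main chain of type I collagen, was at 8.28 and 7.73 on Dox(+) arrays against 127 and 137 on Dox(-) arrays. It was 16.5-fold lower with Dox (log2 difference -4.04, SE 0.09, adjusted p = 2.25e-10), the widest difference of any collagen gene in this comparison. Its partner chain Col1a2 was at 10.7 and 10.6 on Dox(+) arrays against 68.2 and 88.5 on Dox(-) arrays, 7.29-fold lower (adjusted p = 5.83e-08). Both type I probes therefore lay far apart between the EB groups, with the 2 arrays of each group close together.

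In the pancreatic groups the type I chains kept one order. Col1a1 was not above background in βTC6 cells, was at 2.22 and 2.16 on islet arrays, and was at 72.8 and 74.7 on arrays of E15.5 pancreas. Col1a2 was likewise not above background in βTC6 cells, was at 2.50 and 2.16 on islet arrays, and was at 41.2 and 41.9 on arrays of E15.5 pancreas. Dox(+) EBs were thus between islets and E15.5 pancreas for both chains: Col1a1 was 3.65-fold higher than in islets (adjusted p = 1.68e-08) and 9.22-fold lower than in E15.5 pancreas (adjusted p = 1.17e-09). Dox(-) EBs were above E15.5 pancreas, by 1.79-fold for Col1a1 (adjusted p = 1.66e-05) and 1.87-fold for Col1a2 (adjusted p = 0.00022).

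Type III collagen and most type V chains also fell. Col3a1, the homotrimer of stretchable tissues, was at 151 and 165 on Dox(+) arrays against 281 and 293 on Dox(-) arrays, where both spots were saturated, so the fall is at least 1.82-fold (log2 difference -0.86, adjusted p = 7.72e-06). With quantile normalization the same difference was -0.37. Col5a1, a chain of the type V collagen that starts type I fibrils, was at 23.1 and 21.5 on Dox(+) arrays against 80.9 and 86.4 on Dox(-) arrays, 3.75-fold lower (adjusted p = 1.66e-05). Its partner Col5a2 was at 27.4 and 28.4 on Dox(+) arrays against 57.2 and 58.7 on Dox(-) arrays, 2.08-fold lower (adjusted p = 2.89e-06). A second Col5a1 probe was dim everywhere (0.395 to 0.789) and was not called between the EB groups (adjusted p = 0.28).

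Outside the EBs, Col3a1 was at the floor on both βTC6 arrays, at 23.8 and 23.6 on islet arrays, and at 197 and 199.6 with saturated spots in E15.5 pancreas. Col5a1 was at 0.661 and 0.906 on βTC6 arrays, 1.74 and 2.64 on islet arrays and 53.5 and 50.4 on arrays of E15.5 pancreas. Col5a2 was at the floor in βTC6 cells, at 1.67 and 1.62 on islet arrays and at 46.4 and 44.0 on arrays of E15.5 pancreas. All 3 genes were lowest in the insulinoma line, which is a culture of a single cell type. The remaining type V chain, Col5a3, had another pattern: 0.645 and 0.650 on Dox(+) arrays, 0.862 and 0.670 on Dox(-) arrays, 0.639 and 0.632 on βTC6 arrays, 1.47 and 1.31 on islet arrays, and 13.6 and 13.3 on arrays of E15.5 pancreas. Col5a3 was not called between the EB groups (adjusted p = 0.221) and was 20.8-fold lower in Dox(+) EBs than in E15.5 pancreas (adjusted p = 3.32e-09).

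The cartilage-type fibrillar genes split by member. Col11a1, a chain of type XI collagen, was at 4.13 and 4.01 on Dox(+) arrays and at 30.4 on either Dox(-) array, 7.47-fold lower (adjusted p = 1.32e-07). Col11a2, another chain of type XI collagen, was at 1.83 and 1.77 on Dox(+) arrays against 0.927 and 0.908 on Dox(-) arrays, 1.96-fold higher (adjusted p = 0.000175). Col11a1 and Col11a2 thus moved in opposite directions. Col2a1, the main collagen of cartilage, was at 0.876 and 0.768 on Dox(+) arrays against 1.89 and 2.98 on Dox(-) arrays, 2.89-fold lower (adjusted p = 0.000187). None of the 6 tested cartilage markers (Sox9, Acan, Matn3, Hapln1, Comp and Chad) was called by limma between the EB groups (0 of 6 also at an unadjusted p under 0.05).

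Away from the EBs, Col11a1 was at 3.57 and 2.77 on βTC6 arrays, 0.463 and 0.347 on islet arrays and 5.37 and 5.42 on arrays of E15.5 pancreas. Col11a2 was not above background in βTC6 cells, and was at 0.867 and 0.833 on islet arrays and 0.785 and 0.876 on arrays of E15.5 pancreas. Col2a1 was at 0.644 and 0.727 on βTC6 arrays, 0.425 and 0.376 on islet arrays and 0.908 and 0.766 on arrays of E15.5 pancreas. For Col11a1 the order was Dox(-) EBs, then E15.5 pancreas, Dox(+) EBs and βTC6 cells, and last islets, and Dox(+) EBs and βTC6 cells did not differ past the threshold (log2 difference 0.37, adjusted p = 0.0555).

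Col24a1 and Col27a1 encode the vertebrate fibrillar collagens with shorter or interrupted helices. Col24a1, known from developing bone and cornea, was at 4.02 and 3.96 on Dox(+) arrays against 0.932 and 0.709 on Dox(-) arrays. It was 4.91-fold higher (log2 difference 2.29, SE 0.22, adjusted p = 1.51e-05), the widest rise among the chosen probes in this comparison. The second Col25a1 probe, described below, rose further (log2 difference 3.01, adjusted p = 2.3e-07). Col24a1 was at 1.73 and 1.11 on βTC6 arrays, not above background in islets and at 0.641 and 0.488 on arrays of E15.5 pancreas. Dox(+) EBs thus had its highest level of the 5 groups on both arrays. Col27a1, a collagen of growing cartilage, was at 12.7 and 13.2 on Dox(+) arrays against 27.6 and 29.1 on Dox(-) arrays, 2.19-fold lower (adjusted p = 1.12e-05). It was highest in βTC6 cells, at 83.4 and 67.9, and was at 14.7 and 13.1 on islet arrays and 38.2 and 36.7 on arrays of E15.5 pancreas. A second Col27a1 probe also had its highest values in βTC6 cells (6.79 and 5.55) and was lower in Dox(+) than in Dox(-) EBs (log2 difference -0.75, adjusted p = 0.00418).

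**Figure D2:**
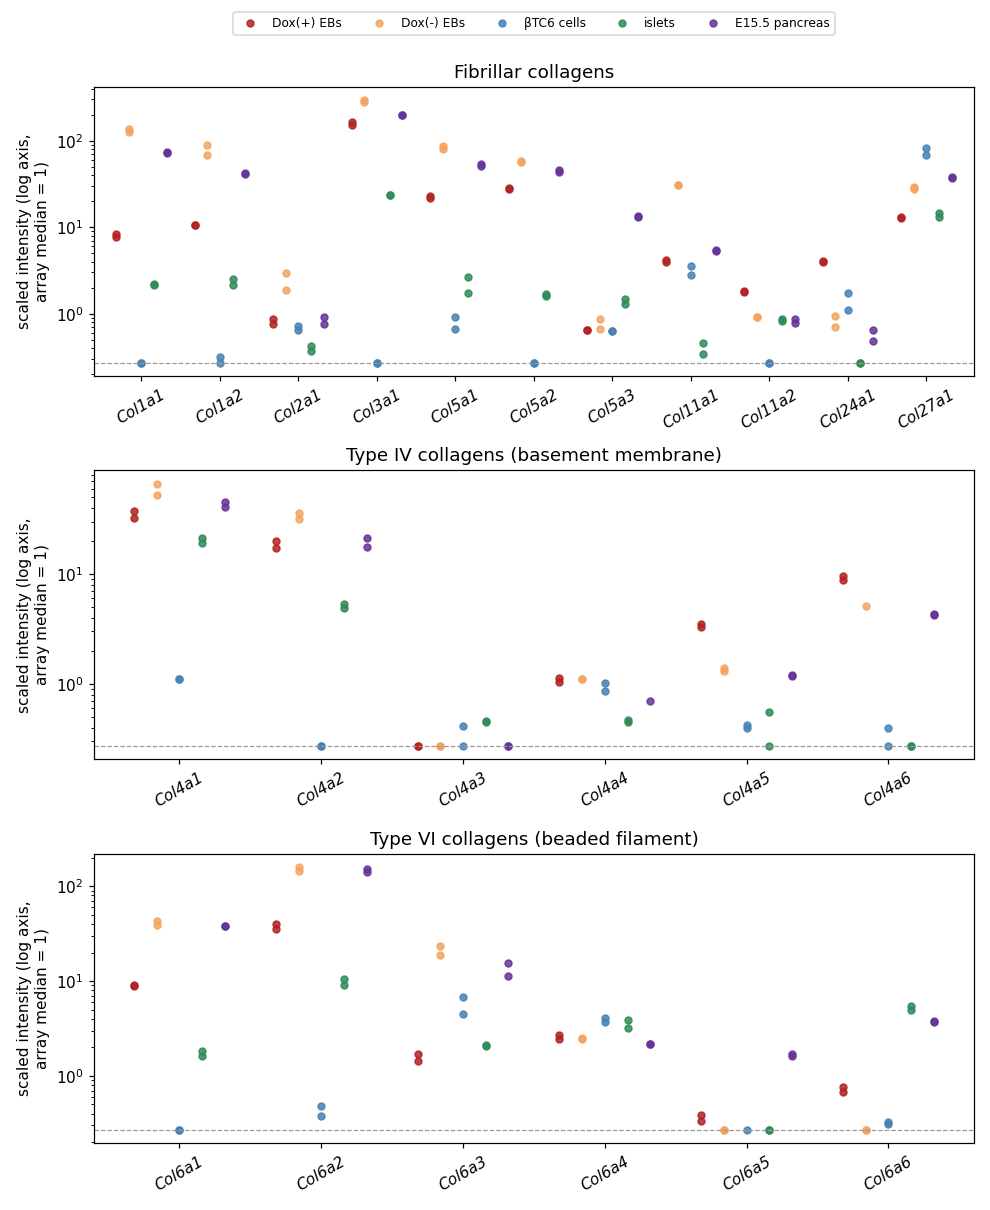
Scaled intensity on each array (log axis, array median 1, dashed line at the floor of 0.27) of the 11 fibrillar, 6 type IV and 6 type VI collagen genes. Points are single arrays, coloured by group. Col1a1 sits at 8.28 and 7.73 on Dox(+) arrays, below Dox(-) EBs and E15.5 pancreas, whereas Col27a1 is highest in βTC6 cells.

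Among type IV genes the pair of Col4a1 and Col4a2 fell and the pair of Col4a5 and Col4a6 rose. Of 6 genes, 2 were higher, 2 lower and 2 were not called in Dox(+) EBs against Dox(-) EBs, with a median of -0.02. Col4a1, a chain of the common basement membrane network, was at 37.6 and 32.2 on Dox(+) arrays against 52.7 and 66.6 on Dox(-) arrays, 1.70-fold lower (adjusted p = 0.000631, and 0.0557 with the 4 EB arrays fitted alone). Col4a2, the other chain of that network, was at 19.9 and 17.1 on Dox(+) arrays against 31.6 and 35.7 on Dox(-) arrays, 1.82-fold lower (adjusted p = 0.00022). These genes stand head to head, and their GRCm38.p6 RefSeq start sites lie 21 bases apart on opposite strands.

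The pair that rose was Col4a5 and Col4a6, whose start sites face away from each other on the X chromosome at a distance of 1343 bases. Col4a5, a chain of the glomerular and smooth muscle networks, was at 3.27 and 3.54 on Dox(+) arrays against 1.41 and 1.31 on Dox(-) arrays, 2.50-fold higher (log2 difference 1.32, SE 0.26, adjusted p = 0.00217). Col4a6, its partner in smooth muscle basement membranes, was at 9.67 and 8.80 on Dox(+) arrays and at 5.09 on the 1 Dox(-) array that measured it, 1.81-fold higher (adjusted p = 0.00975), with the spot of the other Dox(-) array set missing as contaminated. Without Dox(+) array 1, or with no filter on background, the Col4a6 call was lost (adjusted p = 0.0608 in both). The last pair, Col4a3 and Col4a4 of the mature glomerular network, was not called: Col4a3 was at the floor on all 4 EB arrays and Col4a4 was at 1.12 and 1.05 on Dox(+) arrays against 1.11 on either Dox(-) array (adjusted p = 0.942).

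Across the pancreatic groups, Col4a1 was at 1.10 and 1.11 on βTC6 arrays, 21.3 and 19.0 on islet arrays and 44.9 and 40.5 on arrays of E15.5 pancreas. Col4a2 was at the floor in βTC6 cells, at 5.39 and 4.89 on islet arrays and at 17.7 and 21.2 on arrays of E15.5 pancreas. Dox(+) EBs did not differ from E15.5 pancreas past the threshold for either gene (log2 difference -0.29, SE 0.13, adjusted p = 0.0667 for Col4a1 and -0.07, SE 0.12, adjusted p = 0.638 for Col4a2). Both were higher in Dox(+) EBs than in islets, Col4a1 by 1.73-fold and Col4a2 by 3.58-fold (adjusted p = 0.000235 and 2.67e-07).

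Col4a5 was at 0.420 and 0.399 on βTC6 arrays, 0.27 and 0.554 on islet arrays and 1.21 and 1.17 on arrays of E15.5 pancreas. Col4a6 was not above background in βTC6 cells or islets and was at 4.28 and 4.31 on arrays of E15.5 pancreas, 2.15-fold lower there than in Dox(+) EBs (adjusted p = 0.000431). Both genes of this pair were highest in Dox(+) EBs. Col4a3 was measured above background on both arrays of islets only, at 0.449 and 0.464, and Col4a4 was at 1.01 and 0.854 on βTC6 arrays, 0.447 and 0.471 on islet arrays and 0.706 on the 1 E15.5 pancreas array that measured it. A second Col4a4 probe did not follow this, with its highest values of 1.31 and 1.40 on islet arrays.

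Type VI collagen is built from a trimer of the Col6a1, Col6a2 and Col6a3 chains, and all of these fell. Of the 6 type VI genes 1 was higher, 3 lower and 2 were not called, with a median of -0.99. Col6a1 was at 9.04 and 8.95 on Dox(+) arrays against 42.7 and 39.2 on Dox(-) arrays, 4.54-fold lower (adjusted p = 3.72e-08). Col6a2 was at 35.6 and 39.7 on Dox(+) arrays against 159.6 and 146 on Dox(-) arrays, 4.06-fold lower (adjusted p = 6.06e-07). Col6a3 was at 1.43 and 1.71 on Dox(+) arrays against 18.8 and 23.3 on Dox(-) arrays, 13.4-fold lower (log2 difference -3.75, SE 0.21, adjusted p = 1.91e-07). The fall of Col6a3 was thus next in size to that of Col1a1. A second Col6a2 probe was not tested, since it did not exceed 0.371 on any array.

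These chains parted in the insulinoma line. Col6a1 was at the floor on both βTC6 arrays, at 1.63 and 1.84 on islet arrays and at 38.5 and 38.4 on arrays of E15.5 pancreas. Col6a2 was at 0.376 and 0.484 on βTC6 arrays, 10.6 and 9.11 on islet arrays and 153 and 139.7 on arrays of E15.5 pancreas. Col6a3, by contrast, was at 4.54 and 6.83 on βTC6 arrays, 2.07 and 2.14 on islet arrays and 11.2 and 15.6 on arrays of E15.5 pancreas, and was 2.65-fold higher in βTC6 cells than in islets (adjusted p = 0.000132), where Col6a2 was 23.0-fold lower (adjusted p = 5.89e-10) and Col6a1 at least 5.51-fold lower (adjusted p = 2.87e-09).

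The newer type VI chains, Col6a4, Col6a5 and Col6a6, which can take the place of Col6a3, had levels of their own. Col6a6 was at 0.757 and 0.667 on Dox(+) arrays and not above background on Dox(-) arrays, at least 2.59-fold higher (adjusted p = 1.02e-05, with no difference left at a floor of 1). It was not above background in βTC6 cells, at 5.5 and 4.95 on islet arrays and at 3.71 and 3.78 on arrays of E15.5 pancreas. A second Col6a6 probe gave 0.768 and 0.706 on Dox(+) arrays against 1.11 and 0.85 on Dox(-) arrays and was not called (adjusted p = 0.162), so the probes of this gene disagree. Col6a4 lay between 2.16 and 4.07 on every array and was not called between the EB groups (adjusted p = 0.864), at 2.67 and 2.42 on Dox(+) arrays, 2.50 and 2.45 on Dox(-) arrays, 4.07 and 3.71 on βTC6 arrays, 3.19 and 3.87 on islet arrays and 2.16 and 2.18 on arrays of E15.5 pancreas. Col6a5 was at 0.382 and 0.332 on Dox(+) arrays, at the floor in Dox(-) EBs, in islets and on the 1 βTC6 array that measured it, and at 1.7 and 1.6 on arrays of E15.5 pancreas (adjusted p = 0.0571 between the EB groups). A second Col6a5 probe gave 0.332 and 0.349 on arrays of E15.5 pancreas and was highest in βTC6 cells, at 0.439 and 0.38. The high level in E15.5 pancreas thus rests on the chosen probe.

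FACIT collagens sit on the surface of fibrils. Of 7 genes 3 were higher, 2 lower and 2 were not called with Dox, with a median of 0.12. Col14a1, which regulates fibril width, was at 9.15 and 8.72 on Dox(+) arrays against 34.9 and 35.2 on Dox(-) arrays, 3.92-fold lower (adjusted p = 7.97e-08), and was at 0.494 and 0.559 on βTC6 arrays, 2.19 and 2.35 on islet arrays and 31.9 and 30.1 on arrays of E15.5 pancreas. Its second probe was at the floor on all 10 arrays. Col16a1 was at 0.471 and 0.550 on Dox(+) arrays against 1.64 and 2.43 on Dox(-) arrays, 3.93-fold lower (adjusted p = 2.26e-05), and at the floor in βTC6 cells, 0.406 and 0.347 on islet arrays and 3.59 and 4.50 on arrays of E15.5 pancreas. By group means both followed the order of the type I chains except that Col16a1 was higher in E15.5 pancreas than in Dox(-) EBs. Not every step was called by limma. Col14a1 in Dox(-) EBs against E15.5 pancreas differed by 0.18 (adjusted p = 0.149). Col16a1 in Dox(+) EBs against islets differed by 0.44 (adjusted p = 0.0795).

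Col9a3, a chain of the cartilage collagen IX, was at 6.45 and 5.89 on Dox(+) arrays against 4.23 and 4.26 on Dox(-) arrays, 1.45-fold higher (adjusted p = 0.00632). It was at 0.804 and 0.767 on βTC6 arrays, 1.19 and 1.47 on islet arrays and 12.9 and 15.1 on arrays of E15.5 pancreas. Col9a1, its partner chain, was highest in islets, at 2.81 and 2.27, and was at 1.18 and 1.01 on Dox(+) arrays, 1.29 and 1.12 on Dox(-) arrays, 1.46 and 1.50 on βTC6 arrays and 1.65 and 1.55 on arrays of E15.5 pancreas (adjusted p = 0.52 between the EB groups). Col22a1, a collagen of tissue junctions, was at 2.66 and 2.98 on Dox(+) arrays, 2.91 and 2.32 on Dox(-) arrays, 2.07 and 1.69 on βTC6 arrays, 1.27 and 1.61 on islet arrays and 1.80 and 1.63 on arrays of E15.5 pancreas, with overlapping EB arrays (adjusted p = 0.635). Small rises were called for Col19a1, at least 1.62-fold (adjusted p = 0.00659), and for Col20a1, 1.39-fold (adjusted p = 0.0369). The Col20a1 call was lost when any 1 EB array was left out (adjusted p = 0.0651 to 0.18), the Col19a1 and Col9a3 calls were lost without Dox(+) array 1 (0.0615 and 0.0545), and Col19a1 stayed between the floor and 0.489 on every array.

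The multiplexins belong to basement membrane zones. Col18a1, the precursor of endostatin, was at 15.4 and 14.1 on Dox(+) arrays against 10.9 and 12.8 on Dox(-) arrays, 1.25-fold higher (adjusted p = 0.0384), a call that was lost without Dox(-) array 1 (adjusted p = 0.247) and without either Dox(+) array (0.188 and 0.0646). It was not above background in βTC6 cells and was at 28.3 and 28.4 on arrays of E15.5 pancreas, and both islet spots were marked irregular, so islets gave no value. Col15a1, found around capillaries and muscle, was at the floor in both EB groups, not above background in βTC6 cells, at 1.14 and 1.05 on islet arrays and at 3.50 and 3.26 on arrays of E15.5 pancreas.

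Among the network and anchoring collagens limma called none of 3 tested genes with Dox, and 0 of 3 had an unadjusted p under 0.05. Col7a1, which forms the anchoring fibrils of epithelia, was at 0.461 and 0.365 on Dox(+) arrays, 0.314 and 0.284 on Dox(-) arrays, 0.27 and 0.334 on βTC6 arrays, 0.843 and 0.601 on islet arrays and 1.99 and 2.11 on arrays of E15.5 pancreas (adjusted p = 0.101). Col8a2, a short-chain network collagen, was at the floor in Dox(+) EBs, βTC6 cells and islets, at 0.43 and 0.27 on Dox(-) arrays and at 3.00 and 3.10 on arrays of E15.5 pancreas. Its partner Col8a1 did not exceed 0.503 on any array.

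Of the transmembrane collagens only Col17a1, the hemidesmosome collagen, was called with Dox, 1.23-fold lower (adjusted p = 0.023). That call was lost without either Dox(-) array (adjusted p = 0.0592 and 0.107) and without Dox(+) array 2 (0.124), and the gene lay between 5.02 and 7.16 on every array. Col13a1, a collagen of cell contacts, was at 2.60 and 2.46 on Dox(+) arrays, 2.24 and 2.05 on Dox(-) arrays, 4.85 and 3.98 on islet arrays and 1.89 and 2.18 on arrays of E15.5 pancreas, and not above background in βTC6 cells. Col23a1 was at 6.41 and 5.60 on Dox(+) arrays, 7.26 and 7.36 on Dox(-) arrays, 0.885 and 0.839 on βTC6 arrays, 0.531 and 0.585 on islet arrays and 4.78 and 4.68 on arrays of E15.5 pancreas. Its level in Dox(+) EBs was 10.8-fold that of islets (adjusted p = 1.32e-09), and a second probe was also higher there, with 5.4 and 5.41 on Dox(+) arrays against 0.664 and 0.965 on islet arrays. Against E15.5 pancreas the chosen probe was called higher in Dox(+) and Dox(-) EBs (log2 differences 0.34 and 0.63, adjusted p = 0.0227 and 0.000734). The second probe was called in neither (-0.07 and 0.13, adjusted p = 0.782 and 0.578).

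Col25a1, a membrane collagen of neurons and developing muscle, gave opposite readings from its 2 probes. The chosen probe was at 0.499 and 0.554 on Dox(+) arrays, 0.502 and 0.477 on Dox(-) arrays, 0.336 and 0.617 on βTC6 arrays, 2.85 and 3.37 on islet arrays and 7.46 and 7.18 on arrays of E15.5 pancreas, and was not called with Dox (adjusted p = 0.789). The other probe was at 3.23 and 2.71 on Dox(+) arrays against 0.421 and 0.320 on Dox(-) arrays, where 1 of 2 was above background, a fitted log2 difference of 3.01 (adjusted p = 2.3e-07), and it was at the floor on all other arrays. The probes of this gene disagree. Col26a1, the last gene, lay between 2.26 and 5.03 on every array (adjusted p = 0.246 with Dox).

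**Figure D3:**
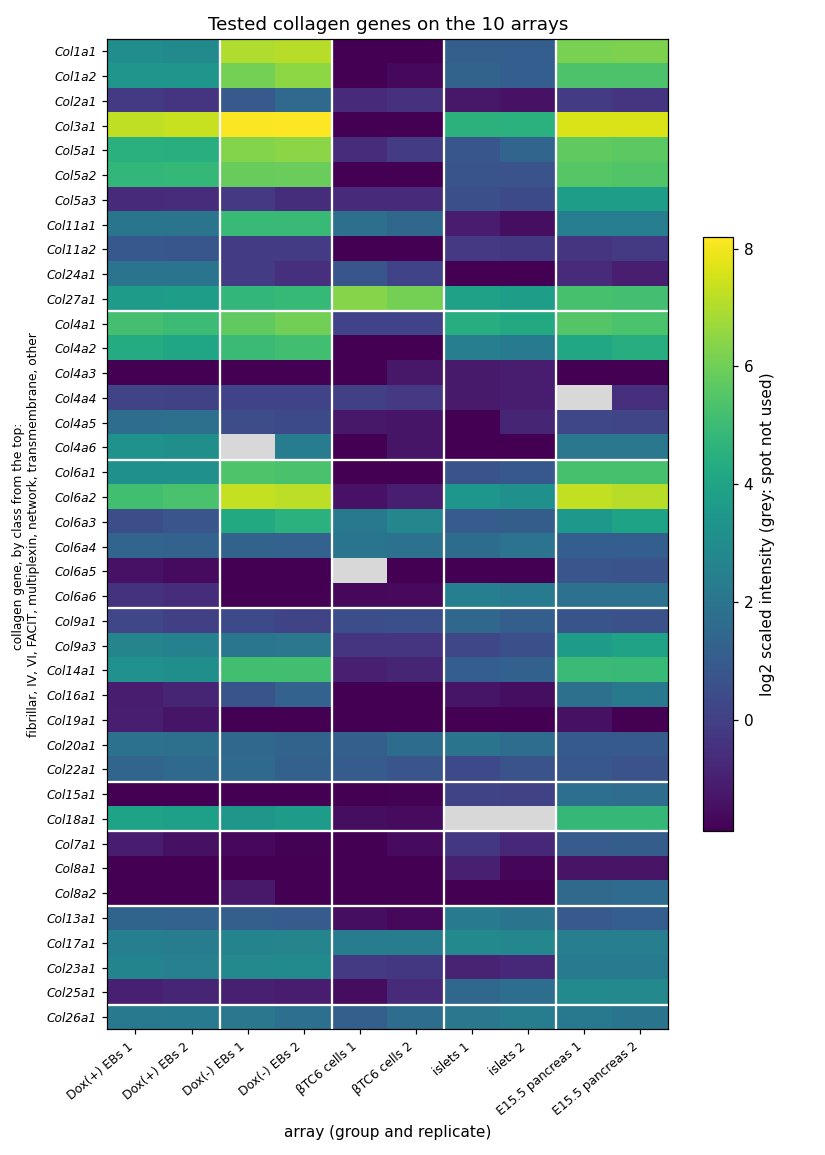
Log2 scaled intensity of the 40 tested collagen genes (rows, by class) on the 10 arrays (columns, by group), with spots that were not used in grey. Rows are to be read along the arrays and not against each other. The βTC6 columns are at the floor for Col1a1, Col3a1, Col5a2, Col4a2 and Col6a1, and bright for Col27a1.

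Dox(+) EBs were next set against each pancreatic sample. Against E15.5 pancreas 9 of 40 genes were higher and 23 lower, where 33.0% of all probes were higher, 26.9% lower and 60.0% either, with a median of -0.53 over the genes and 0.07 over all probes. Fibrillar genes (2 higher, 8 lower) and type VI genes (0 higher, 5 lower) were mostly below the embryonic pancreas, and type IV genes (3 higher, 0 lower) were not. One of these 3 was Col4a4, measured on 1 E15.5 pancreas array, and its second probe was not called (log2 difference -0.07, adjusted p = 0.858). Among the lower genes, the second probes of Col5a1, Col6a5 and Col6a6 were not called either. They differed by 0.36, -0.08 and 0.22 (adjusted p = 0.123, 0.811 and 0.403). Against islets 22 of 39 genes were higher and 11 lower, where 36.4% of all probes were higher, 31.6% lower and 68.0% either, with a median of 0.79 beside 0.05. Here 9 of 11 fibrillar and 5 of 6 type IV genes were higher, and Col5a2 stood 16.9-fold above islets (adjusted p = 6.8e-11). One of the 5 type IV genes was Col4a4, whose second probe was called the other way, 2.56-fold lower in Dox(+) EBs (adjusted p = 0.000907). The second Col25a1 probe was called higher in Dox(+) EBs than in islets and E15.5 pancreas, where the chosen one was called lower.

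Against βTC6 cells 24 of 40 genes were higher and 4 lower, where 25.5% of all probes were higher, 37.5% lower and 62.9% either, with a median of 0.86 beside -0.11. The widest bound was that of Col3a1, at least 503-fold (adjusted p = 7.02e-13). The 4 lower genes were Col27a1, Col6a3, Col6a4 and Col9a1, by 5.80-, 3.56-, 1.53- and 1.35-fold. In this comparison 7 of 11 fibrillar and 4 of 6 type IV genes were higher in Dox(+) EBs.

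Dox(-) EBs were above E15.5 pancreas for 6 measured fibrillar genes. Set against E15.5 pancreas, 14 of 40 genes were higher and 13 lower, where 33.6% of all probes were higher, 24.8% lower and 58.5% either, with a median of 0.16 beside 0.09. Of 11 fibrillar genes 7 were called higher and 2 lower, led by Col11a1 at 5.63-fold (adjusted p = 3.62e-07). The 7 include Col3a1, whose spots were saturated on all arrays of both groups, so that its difference is not measured. All 5 tested multiplexin and network genes were called lower, Col8a1 only narrowly (adjusted p = 0.0482). Col8a1 was at the floor in Dox(-) EBs and at 0.387 and 0.388 on arrays of E15.5 pancreas. The second probes of Col6a6 and Col25a1 were called higher here (1.53- and 1.36-fold), where the chosen ones were called lower. The second Col6a5 probe was not called (log2 difference -0.02, adjusted p = 0.985), where the chosen one was called lower. For Col6a1 and Col6a2 no difference passed the threshold: Col6a1 differed by 0.09 (SE 0.10, adjusted p = 0.467) and Col6a2 by 0.06 (SE 0.13, adjusted p = 0.727).

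Islets were below E15.5 pancreas for most collagen genes. Of 39 genes 7 were higher and 27 lower, where 32.4% of all probes were higher, 32.5% lower and 65.0% either, with a median of -1.62 beside 0.0. Among 11 fibrillar genes 10 were lower and 0 higher, and Col1a1 was 33.7-fold lower (adjusted p = 6.37e-11). The second probes of Col4a4 and Col5a1 were called higher in islets (2.44- and 1.43-fold), where the chosen ones were called lower. The 7 higher genes were Col4a3, Col6a4, Col6a6, Col9a1, Col20a1, Col13a1 and Col17a1, by 1.31- to 2.16-fold, with Col4a3 as a bound. The second Col6a6 probe was not called (log2 difference -0.17, adjusted p = 0.51). Nor was the second Col6a5 probe (-0.34, adjusted p = 0.222), where the chosen one was called lower.

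In βTC6 cells against islets 7 of 39 genes were higher and 23 lower, where 39.1% of all probes were higher, 27.0% lower and 66.1% either, with a median of -0.75 beside 0.12. Col4a1 was 18.2-fold lower (adjusted p = 8.25e-10) and Col3a1 at least 75.4-fold lower (adjusted p = 2.99e-12). The 7 higher genes were Col11a1 (7.85-fold), Col27a1 (5.42-fold), Col24a1 (at least 5.14-fold), Col6a3 (2.65-fold), Col4a4 (2.03-fold), Col2a1 (1.71-fold) and Col23a1 (1.55-fold). The second Col4a4 probe was called the other way, 2.02-fold lower in βTC6 cells (adjusted p = 0.00584), and the second Col23a1 probe differed by -0.35 (adjusted p = 0.111).

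Lists of genes that work on or beside collagen are read against the 20.7% of all tested probes that were higher with Dox, the 22.5% that were lower and the median of -0.03. Of 17 tested genes for folding and modification 2 were higher and 7 lower in Dox(+) EBs against Dox(-) EBs, with a median of -0.34. P4ha3, a catalytic subunit of prolyl hydroxylase, was at 0.638 and 0.613 on Dox(+) arrays against 4.02 and 4.13 on Dox(-) arrays, 6.52-fold lower (adjusted p = 1.03e-07). Serpinh1, the collagen chaperone of the endoplasmic reticulum, was at 79.0 and 64.9 on Dox(+) arrays against 156 and 145 on Dox(-) arrays, 2.10-fold lower (adjusted p = 3.13e-05), and was not above background in βTC6 cells. The falls of Colgalt1, P4hb, Crtap, P3h1 and P4ha1 lay between 1.58- and 1.96-fold. Colgalt2, a collagen galactosyltransferase, rose by 1.78-fold, and Mia3, which exports collagen from the endoplasmic reticulum, by 1.45-fold.

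Of 10 genes for processing and crosslinking 2 were higher and 4 lower, with a median of -0.21. Lox, which oxidises lysines for crosslinks, was at 1.38 and 1.82 on Dox(+) arrays against 8.68 and 9.60 on Dox(-) arrays, 5.75-fold lower (adjusted p = 7.9e-06), and its relatives Loxl1, Loxl2 and Loxl3 fell by 1.76- to 1.95-fold. Bmp1, the protease that removes the carboxy end of procollagen, was at 33.8 and 32.6 on Dox(+) arrays against 17.6 and 16.8 on Dox(-) arrays, 1.93-fold higher (adjusted p = 1.73e-05). Pcolce2, an enhancer of that protease, was at 1.45 and 1.6 on Dox(+) arrays against 0.430 and 0.401 on Dox(-) arrays, 3.66-fold higher (adjusted p = 2.95e-06). Pxdn, which crosslinks type IV collagen, was at 44.2 and 40.2 on Dox(+) arrays against 51.5 and 49.1 on Dox(-) arrays and was not called (adjusted p = 0.0772). Pcolce, the other enhancer of the protease, was at 25.6 and 23.7 on Dox(+) arrays against 28.6 and 26.7 on Dox(-) arrays and was not called either (adjusted p = 0.248).

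Collagen turnover genes (1 higher, 4 lower of 9, median -0.30) included Mmp14, the membrane collagenase, at 28.6 and 28.0 on Dox(+) arrays against 53.5 and 62.0 on Dox(-) arrays, 2.04-fold lower (adjusted p = 9.02e-06). Mmp8, a secreted collagenase, rose by 1.90-fold (adjusted p = 0.000868). Of 5 tested receptors 1 was higher and 0 lower, with a median of 0.04. It was Itga1, the integrin chain that binds type IV collagen, at 3.27 and 2.53 on Dox(+) arrays against 1.68 and 1.76 on Dox(-) arrays, 1.67-fold higher (adjusted p = 0.00364).

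Of 10 fibril partners 0 were higher and 9 lower, with a median of -1.88. Lum, a small proteoglycan on collagen fibrils, was at 5.76 and 5.47 on Dox(+) arrays against 76.6 and 75.1 on Dox(-) arrays, 13.5-fold lower (adjusted p = 3.37e-10). Dcn, of the same family, was 6.44-fold lower (adjusted p = 1.2e-08), Thbs2 7.00-fold lower (adjusted p = 3.91e-08), and Fn1, the fibronectin gene, 5.19-fold lower (adjusted p = 3.98e-06). Of 13 basement membrane partners measured in both EB groups 1 was higher and 8 lower, with a median of -0.66. Nid1, which links laminin to type IV collagen, was at 4.57 and 5.26 on Dox(+) arrays against 16.7 and 18.4 on Dox(-) arrays, 3.57-fold lower (adjusted p = 6.29e-07), and Sparc, a collagen-binding glycoprotein, was at 81.0 and 75.5 on Dox(+) arrays against 218 and 219.6 on Dox(-) arrays, 2.80-fold lower (adjusted p = 8.82e-08). The exception was Lama2, a laminin chain of muscle, 1.93-fold higher (adjusted p = 0.000976).

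**Figure D4:**
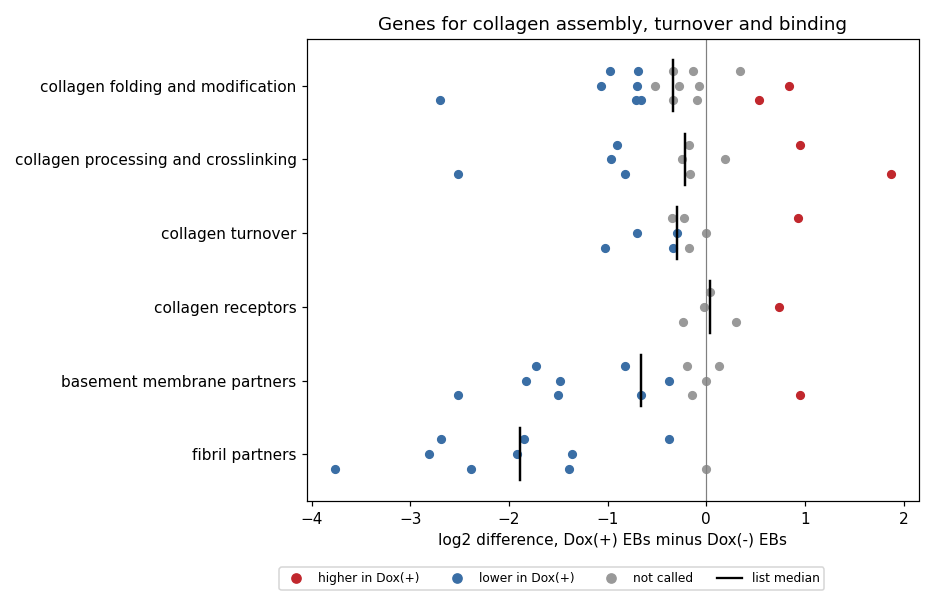
Log2 difference between Dox(+) EBs and Dox(-) EBs (x axis) of the tested genes of 6 lists of collagen partners (rows, with points spread vertically for legibility), coloured by the limma call, with each list's median as a black line. The fibril partners have 9 of 10 genes lower and a median of -1.88, and the receptors have none lower.

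Markers of other cell types differed by list. The 13 mesenchyme markers summed to 189 and 181 on Dox(+) arrays, 297 and 305 on Dox(-) arrays, 20.0 and 23.4 on βTC6 arrays, 67.1 and 67.4 on islet arrays and 195 and 197 on arrays of E15.5 pancreas. With Dox 3 of the 13 were higher (Pdgfrb, Fap and Twist1) and 7 lower, with a median of -0.57. Acta2 and Tagln, of smooth muscle and activated fibroblasts, fell by 5.02- and 3.70-fold, whereas Pdgfra, a general mesenchyme receptor, was at 27.3 and 29.1 on Dox(+) arrays against 32.7 and 33.9 on Dox(-) arrays (adjusted p = 0.245). Of the 13, Prrx1 was above background on 1 of 4 EB arrays. The part of these markers in the fall of the collagens was not tested.

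The 10 endothelium markers summed to 80.2 and 76.4 on Dox(+) arrays against 78.4 and 74.4 on Dox(-) arrays, with 3 higher (Pecam1, Cdh5 and Emcn), 1 lower (Vwf) and a median of 0.04, and 2 of 10 were above background on both βTC6 arrays, against 9 on both islet arrays. The 8 extraembryonic endoderm markers, of a cell type that lays down thick basement membrane, summed to 54.7 and 56.2 on Dox(+) arrays against 111 and 117 on Dox(-) arrays, with Sox17 higher and Dab2, Pth1r and Thbd lower. The median difference over these 8 was 0.02, and the sums differ mainly by Pth1r, at 16.3 and 19.7 on Dox(+) arrays against 61.0 and 56.8 on Dox(-) arrays, and by Dab2, at 3.04 and 2.80 on Dox(+) arrays against 25.1 and 28.3 on Dox(-) arrays. All 4 epithelium markers were lower and all 7 endocrine markers higher with Dox, with endocrine sums of 391 and 363 on Dox(+) arrays against 6.30 and 6.15 on Dox(-) arrays. The 6 tested cartilage markers differed by -0.22 to 0.18 between the EB groups. The part of these cell types in the collagen values was not tested.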

How the data were processed

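Total RNA was hybridised to 1-colour CodeLink Mouse Whole Genome arrays. The deposited intensity values were made by the authors with CodeLink Expression Analysis 4.1.0.29054, as spot mean minus local median background, scaled to the median of each array's 34967 probes. Masked, contaminated and irregular spots were set missing (one Col4a6, one Col4a4, one Col6a5 and both islet Col18a1 spots among the members) and saturated spots were kept as bounds. Values were floored at 0.27 and log2 transformed, and limma 3.58.1 (R 4.3.3; eBayes with trend and robust) fitted the 5 group means jointly to the 10 arrays, with 5 residual and a median of 5.18 prior degrees of freedom. Tests covered 28259 probes that exceeded background on both arrays of 1 or more groups, with Benjamini-Hochberg adjustment per contrast over all of them and a threshold of 0.05. The fit was tested on simulated data. The number of arrays limits the precision. Folds are means of log2 values turned back. Where the lower group was not above background on either array, the fold is "at least" the higher mean over the mean of the lowest signal above background or the dim probe's own level, whichever is higher on each array, and a saturated higher group also gives a bound. The removal of invalid probes that the study describes was not repeated.

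Probes were named through the platform annotation and a RefSeq gene table (21615 with 1 symbol, 681 with several, 12671 with none). Every collagen gene is named, with array values for fibrillar, type IV and type VI members and the 12 members of other classes with the widest range of group means. Partner genes are up to 6 per list with the smallest adjusted p with Dox and up to 4 with the largest difference elsewhere, and marker lists cover mesenchyme, endothelium, cartilage, extraembryonic endoderm, epithelium, endocrine and acinar cells. P3h1, Mia3, Colgalt2, Pcolce and Lama2, and the markers given with values of their own, fall outside that rule and were picked after their values were seen. The members and lists were chosen with earlier results of these data known. Python 3.11.15 (pandas 2.3.3, numpy 2.4.6) made the tables, and matplotlib 3.10.9 the plots. Alternatives were 2 other normalizations, 2 other floors, 2 other filters, kept contaminated spots, the arrays of 2 groups alone, another variance model, the replicate number as a block, the second probe, a minimum of 2-fold, and omission of each array.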

Additional observations from a re-analysis of the deposited data

How the results depend on the processing

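Counts of called collagen genes kept within 1.5 times of those reported under quantile normalization, normexp with quantile normalization, a floor of 0.1, no filter on background, contaminated spots kept, the 2 groups' arrays alone and eBayes without trend and robust weights. Testing only probes above background on all arrays left 16 collagen genes, and the counts were then 2 higher and 8 lower (Dox(+) against Dox(-) EBs), 3 higher and 9 lower (Dox(+) EBs against E15.5 pancreas), 8 higher and 4 lower (against islets), 9 higher (against βTC6 cells), 9 higher and 4 lower (Dox(-) EBs against E15.5 pancreas), 4 higher and 10 lower (islets against E15.5 pancreas) and 9 lower (βTC6 cells against islets). A floor of 1 gave 5 higher with Dox, 7 lower in Dox(+) EBs than in islets and 3 higher in βTC6 cells than in islets. A 2-fold minimum left 3 higher with Dox, 4 higher than E15.5 pancreas, 5 lower than islets and 2 lower than βTC6 cells for Dox(+) EBs, 2 higher for Dox(-) EBs than E15.5 pancreas, and 1 higher for islets than E15.5 pancreas. Reading genes by their second probe gave 8 lower in Dox(-) EBs than in E15.5 pancreas.

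Leaving out 1 array gave 4 to 7 higher and 15 to 16 lower with Dox. The 4 came without Dox(+) array 1, where Col19a1, Col4a6, Col18a1, Col20a1 and Col9a3 lost their calls. Dox(+) EBs against E15.5 pancreas gave 6 to 9 higher and 20 to 21 lower, against islets 21 to 22 and 9 to 10, and against βTC6 cells 22 to 25 and 3 to 5. Dox(-) EBs against E15.5 pancreas gave 9 to 12 higher and 10 to 11 lower, and the 9 came without E15.5 pancreas array 2. Islets against E15.5 pancreas gave 6 to 7 and 27, and βTC6 cells against islets 7 to 8 and 21 to 23. Col4a5 in βTC6 cells against islets differed by 0.08 over all arrays, by -0.44 without islet array 1 and by 0.60 without islet array 2. The cause was not tested where no construction is named.

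Same-numbered arrays did not deviate together (correlations of -0.071 to 0.065), which cannot settle whether samples were handled in pairs. With the replicate number as a block 7 collagen genes were higher and 16 lower with Dox. Of the 25 genes called with Dox, 17 kept the call in every alternative that tested them. Quantile normalization set the median of all probes to 0.0 in βTC6 cells against islets (0.12 without it) and in Dox(+) EBs against βTC6 cells (-0.11 without it), and the split of calls stayed within 10 percentage points. On the 10 arrays the median probe lay 1.66 to 2.63 background levels above its background, which limits the dim members.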
